A study of Mus musculus with 26 samples.

Results

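The nuclear-encoded genes of the mitochondrial respiratory chain and ATP synthase were followed in mouse embryonic stem cells (mESCs) across 15 libraries of RNA-seq reads. Members were taken by symbol alone: the Nduf a, b, c, s and v genes (complex I), Sdha to Sdhd (complex II), the Uqcr genes (complex III), Cox4 to Cox8 genes (complex IV) and the Atp5 genes (complex V), without Ndufa4l2 and pseudogene symbols. This gave 83 of the 24015 genes in the files: 36 for complex I, 4 for complex II, 8 for complex III, 18 for complex IV and 17 for complex V. Of these, 78 reached an RPKM (a read number scaled by transcript length and library size) of at least 1 in 2 or more libraries and were among the 13477 genes tested. Ndufs5 was listed at 0 in all 15 libraries, and the muscle- or testis-type isoforms Cox6a2, Cox7b2, Cox8b and Cox8c stayed under the filter. Genes carried by mitochondrial DNA were not analysed here.

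The respiratory chain passes electrons from NADH through complex I, or from succinate through complex II, to complexes III and IV, and complex V uses the resulting proton gradient to make ATP. Most of its subunits are made from nuclear genes, many of them short, and are imported into the mitochondrion. Naive mESCs are known to use respiration beside glycolysis, whereas primed pluripotent cells depend mainly on glycolysis.

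All libraries came from a Stella:GFP mESC strain. The wild type (wt) gave 1 library from serum+LIF and 2 from 2i+LIF, a serum-free medium with a MEK and a GSK3β inhibitor in which all lines were maintained. All groups but wt 2i+LIF were grown for 5 days in serum+LIF before RNA was taken. Prdm14-/- (clones F10 and G6) lacked the transcriptional regulator Prdm14, and Mtgr1-/- (clones A3, C1 and C3) lacked its ETO-family partner Mtgr1; both had been made with CRISPR-Cas9. FH-Prdm14 (F10, G6) and FH-Mtgr1 (A3, C1, C3) were the same clones given back a FLAG-HA-tagged cDNA, and E294K (F10, G6) was the Prdm14-/- clone given a tagged Prdm14 that carries the E294K substitution. The rescue lines therefore carried both the knockout allele and a transgene. The knockout and rescue libraries of one group were separate clones, and the wt serum+LIF condition had no replicate.

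Library depth ran from 10668572 to 21218414 reads in genes, with a median of 13793727. The tested members had from 17 to 40476 reads in a library with a median of 1300.5, and 75 of 78 had at least 100 reads in every library. Prdm14 RPKM was 1.96 to 3.6 in Prdm14-/-, 2.77 in wt serum+LIF and 79.8 to 116 in FH-Prdm14, and Mtgr1 (listed as Cbfa2t2) was 18 to 19.9 in Mtgr1-/- against 25.5 to 28 in FH-Mtgr1. Mtgr1 was also 16.6 to 16.8 in Prdm14-/- and 40.7 in wt serum+LIF. A transcript level does not test an allele that can still be transcribed. The 7 pluripotency markers summed to RPKM values of 1705 to 1834 in Prdm14-/- against 2357 to 2423 in FH-Prdm14, 1103 to 1462 in Mtgr1-/- against 1396 to 1674 in FH-Mtgr1, and 1695 to 2626 in wt 2i+LIF against 1786 in wt serum+LIF. The 6 fibroblast feeder markers summed to 2.06 to 2.47 in wt 2i+LIF against 16.8 in wt serum+LIF. Per the study's methods, the serum+LIF cultures were feeder-free. Over all 15 libraries Thy1 reached 24.6, Col1a1 16.7 and Col1a2 2.95, while Col3a1, Postn and Dcn stayed at or under 0.62. The 4 primitive endoderm markers summed to 1.58 to 3.76 in Mtgr1-/- against 7.2 to 11.4 in FH-Mtgr1. They summed to 4.38 to 13.8 in Prdm14-/- against 3.955 to 5.08 in FH-Prdm14, and to 5.31 in wt serum+LIF. Of the trophoblast markers, Krt7, a keratin of simple epithelia, reached 67.4 to 116 in the knockouts and at most 12.3 elsewhere, while the other 3 together reached 7.10 to 9.95 in the knockouts and at most 5.35 elsewhere. The part of these markers in the results was not tested. The 2 wt 2i+LIF libraries were farther apart than any other replicate pair, and Mtgr1-/- C3 stood apart from A3 and C1, so values without them are given beside the results that move. In bulk RNA, fewer cells of a type and less RNA per cell cannot be told apart.

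Most of these genes were short. The tested members had a median transcript length of 686.5 bases against 2750 for all tested genes, and 76 of the 78 were shorter than the median gene. Short genes as a whole moved between libraries: the 3007 other tested genes of like length, 452 to 1698 bases, made up 41.3% to 52.6% of all RPKM. Each comparison is therefore given on the RPKM values as deposited and after an adjustment for gene length. In the adjustment, each library's smooth trend of log2 values on length was removed. A further adjustment for both length and GC content, added after the data were seen, is named where it ends the call of a gene given with its values. Tests were made with limma across all 13477 genes, and a gene was called where its Benjamini-Hochberg adjusted p was under 0.05. Counts of called members without single libraries, or with a replicate block, are given without the share of all genes called in the same fit. From such counts alone, a move of the members and a move of all genes cannot be told apart.

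Proximal promoters were matched by symbol in the RefSeq set (build GRCm38.p6) for 66 of the 83 members. Within 300 bases, 250 before to 50 after the transcript start, 4 motifs of factors known for respiratory genes were searched on both strands. The NRF1 motif, GCGCA and GCGC with any 1 base between them, was present in 17 members (25.8%) and in 5.19% of all 27025 genes with a promoter. The ETS motif CCGGAAG, which nuclear respiratory factor 2 (GABP) binds, was present in 16 members (24.2%) against 9.93%. The ERR motif AAGGTCA was present in 8 (12.1%) against 5.38%, and the GC box GGGGCGGGG in 10 (15.2%) against 12.9%. The 27025 genes were taken whether or not they were expressed in these cells. Shares over the tested genes alone are not given, so a difference of the members from other expressed genes is not shown. Shown are the upstream 250 bases of members on which the results turn: Atp5k, among the members that differed most between 2i+LIF and serum+LIF, and the paralogs Cox6b1 and Cox6b2, which encode the widely expressed and the testis-type form of the same complex IV subunit. Capitals mark the searched motifs: NRF1 in Atp5k, ETS in Cox6b1 and the GC box in Cox6b2. Atp5k also had an ETS and an ERR match in the searched window that are not within the bases shown. All are written 5′ to 3′ on the gene's strand, which is the minus strand in each case. A match is a description of letters, not of binding.
Atp5k, chr5:108434400-108434649: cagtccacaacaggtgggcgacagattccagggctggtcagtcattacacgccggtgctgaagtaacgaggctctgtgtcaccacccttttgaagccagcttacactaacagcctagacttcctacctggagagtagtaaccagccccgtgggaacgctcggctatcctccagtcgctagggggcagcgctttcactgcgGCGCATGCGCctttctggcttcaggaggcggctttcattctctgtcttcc
Cox6b1, chr7:30626115-30626364: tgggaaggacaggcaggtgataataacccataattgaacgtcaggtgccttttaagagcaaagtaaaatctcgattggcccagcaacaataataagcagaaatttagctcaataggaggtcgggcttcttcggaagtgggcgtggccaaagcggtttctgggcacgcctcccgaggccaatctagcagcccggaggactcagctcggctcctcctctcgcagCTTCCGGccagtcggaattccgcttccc
Cox6b2, chr7:4753095-4753344: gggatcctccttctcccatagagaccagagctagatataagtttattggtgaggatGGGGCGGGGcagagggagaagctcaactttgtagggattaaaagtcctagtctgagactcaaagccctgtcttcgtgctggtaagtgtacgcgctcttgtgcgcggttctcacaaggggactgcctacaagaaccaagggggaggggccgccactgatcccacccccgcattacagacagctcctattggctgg

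The members were among the more abundant transcripts, and 43 had a mean RPKM over 100 across the 15 libraries. The highest was Atp5b, the catalytic beta subunit of ATP synthase, at a mean of 993, followed within complex IV by Cox4i1 at 587, the common form of subunit 4. In complex I the mean RPKM ran from 27.8 for Ndufs4 to 229.6 for Ndufa4, which was first named as a complex I subunit and has since been placed in complex IV. In complex III it ran from 70.2 for Uqcrc2, a core protein, to 246 for Uqcr10, and in complex II from 74.8 for Sdhc to 105 for the iron-sulfur subunit Sdhb. The lowest tested members were Atp5s at 4.23, a coupling factor and not a core subunit, and Cox4i2 at 4.90, the lung-type and hypoxia-linked form of subunit 4. The median over members was close to 185 RPKM in complexes IV (185) and V (186) and lower in complex I (79.9).

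**Figure D1:**
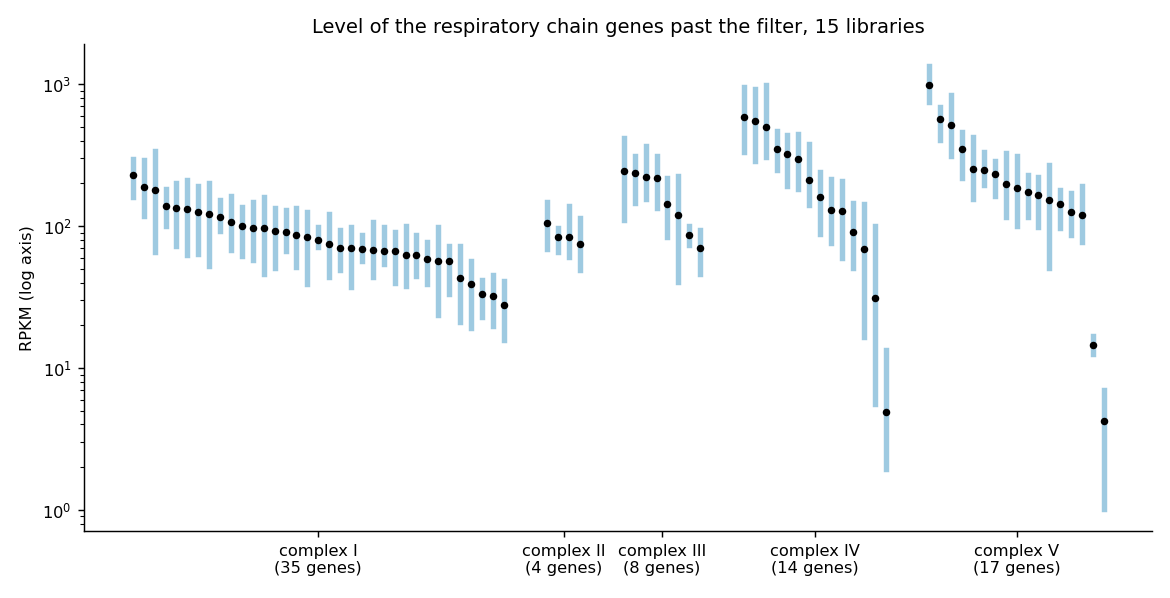
RPKM of the 78 tested members by complex on a log axis, ordered by mean, with a point for the mean and a bar from the lowest to the highest of the 15 libraries. Complexes III, IV and V hold the most abundant members, led by Atp5b at a mean of 993, and Atp5s and Cox4i2 lie lowest.

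Together the members made up 2.17% to 3.27% of all RPKM. The share was 2.29% in wt serum+LIF and 2.93% and 3.27% in wt 2i+LIF. It was 2.36% and 2.22% in Prdm14-/- against 2.79% and 2.71% in FH-Prdm14, and 2.75% and 2.80% in E294K. In Mtgr1-/- it was 2.26%, 2.37% and 2.17% for A3, C1 and C3, against 2.83%, 2.56% and 2.81% in FH-Mtgr1. Both knockouts thus lay near the single wt serum+LIF library and below each of their rescue libraries, and wt 2i+LIF lay highest. Set against the RPKM of the like-length genes, the picture of one knockout changed: the ratio was 0.0524 to 0.0550 in Mtgr1-/- and 0.0520 to 0.0549 in FH-Mtgr1, ranges that overlap. It was 0.0499 and 0.0503 in Prdm14-/-, below both FH-Prdm14 libraries (0.0599 and 0.0600) and both E294K libraries (0.0627 and 0.0633). In wt 2i+LIF it was 0.0651 and 0.0665 against 0.0553 in wt serum+LIF.

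**Figure D2:**
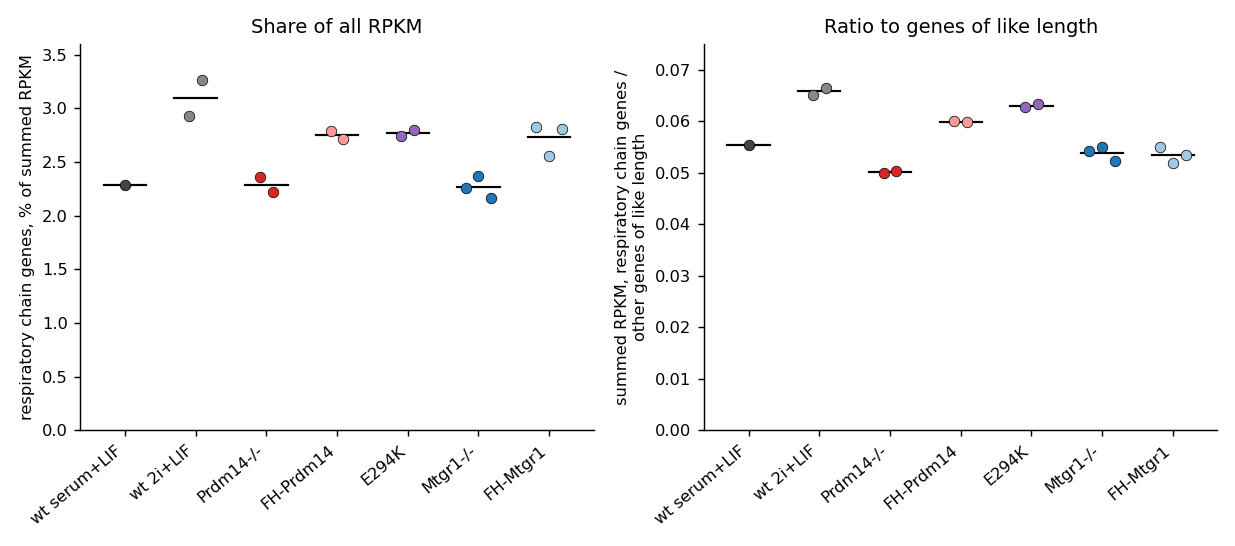
Summed RPKM of the members in each library as a percent of all RPKM (left) and as a ratio to other genes of like length (right), 1 point per library by group, with the group mean as a bar. Mtgr1-/- lies below FH-Mtgr1 in percent (at most 2.37% against at least 2.56%) but overlaps it in the ratio, while in both Prdm14-/- lies below FH-Prdm14 and E294K and wt 2i+LIF above wt serum+LIF.

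The comparison of wt 2i+LIF with wt serum+LIF asked how ground-state culture differed from serum culture. Respiratory chain genes were higher in 2i+LIF in every complex: 37 of 78 were called higher and 0 lower by limma, where 9.28% of all tested genes were called higher and 13.6% lower, and where 13.8% of like-length genes were called higher and 8.95% lower. The median log2 fold change was 0.66, and 70 of 78 members had a positive value. After the length adjustment 33 were called higher and 0 lower (11.6% and 11.2% of all genes), with a median of 0.48, and 27 of the members were called in both fits. In 60 members both 2i+LIF libraries lay above the serum+LIF library, which held for 30.9% of all genes.

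The members raised in 2i+LIF were spread over 18 of 35 in complex I, 1 of 4 in complex II, 3 of 8 in complex III, 9 of 14 in complex IV and 6 of 17 in complex V. Cox7a1, the heart- and muscle-type form of a complex IV subunit, had an RPKM of 14.1 in serum+LIF and of 49.7 and 100.05 in 2i+LIF. Both 2i+LIF libraries lay above the serum library but also far from each other. The log2 difference was 2.28 ± 0.56 (SE, limma adjusted p = 0.013). Atp5k, the e subunit of ATP synthase, rose from 50.9 to 141 and 271 (log2 difference 1.93 ± 0.36, limma adjusted p = 0.0033). Ndufb7, an accessory subunit of complex I, rose from 62.3 to 175 and 212, and its replicates were closer together (1.62 ± 0.21, limma adjusted p = 4.3e-04).

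Core subunits showed both patterns. Ndufs7, an iron-sulfur core subunit of complex I, rose from 46.2 to 161 and 124 (log2 difference 1.6), and Sdhb of complex II rose from 76.3 to 136 and 149 (0.89). In contrast, Ndufs1, another core subunit of complex I, had an RPKM of 37.2 in serum+LIF and 31.8 and 31.0 in 2i+LIF, and Atp5a1, the alpha subunit of ATP synthase, had 618 and then 599 and 696. Neither of these passed the test. Atp5b rose from 941 to 1297 and 1343 (log2 difference 0.49, limma adjusted p = 0.035).

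The 2i+LIF differences were larger in shorter members. In the 26 shortest members (292 to 560 bases) the median log2 difference was 0.91 and 18 of 26 were called higher. The 26 of middle length (561 to 1001 bases) had a median of 0.68 with 13 of 26 called, and the 26 longest (1027 to 2927 bases) 0.29 with 6 of 26. Other genes in the same length ranges had medians of 0.21, 0.18 and -0.04, each below that of the members.

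The wt 2i+LIF result rests on few libraries. Without the first 2i+LIF library 45 members were called higher, and without the second 28, with 0 lower both times. The share of all genes called in these 2 fits is not given here. With only these 2 conditions in the limma fit, 0 of 78 members and 0 of 13477 genes were called, while 14 members and 1593 genes had an unadjusted p under 0.05. The calls therefore use the spread of the other groups' libraries, and the single serum+LIF library and its condition cannot be told apart.

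**Figure D3:**
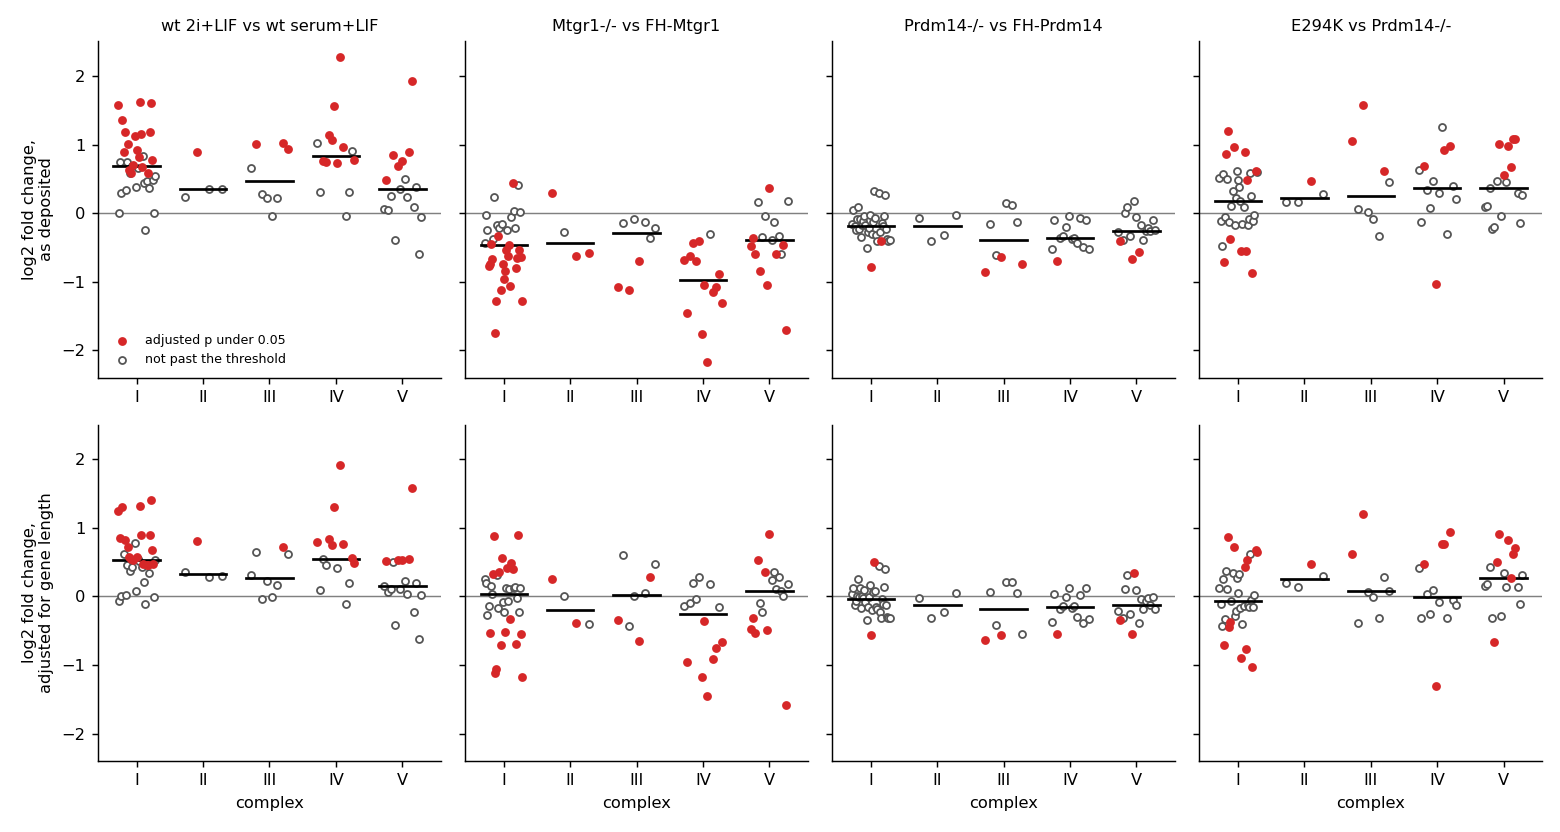
Log2 fold change of each tested member by complex in 4 comparisons, 1 point per gene, on values as deposited (top) and adjusted for gene length (bottom), with called members filled in red and the median of each complex as a bar. In the top row 70 of 78 points lie above 0 for wt 2i+LIF against serum+LIF and 69 of 78 below 0 for Mtgr1-/- against FH-Mtgr1, and in the bottom row the medians over all members are 0.48 and -0.04.

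The comparison of Mtgr1-/- with FH-Mtgr1 asked what changed with loss of Mtgr1 against its own rescue. On deposited values, respiratory chain genes were lower in Mtgr1-/- in each complex: 46 of 78 were called lower and 3 higher by limma (26.1% and 26.2% of all tested genes), with a median log2 difference of -0.50 against -0.01 for all genes. Short genes in general were lower as well, and among like-length genes 37% were called lower and 17.4% higher, with a median of -0.27. Like-length genes made up 41.4% to 43.2% of all RPKM in Mtgr1-/-, 41.3% in wt serum+LIF and 49.2% to 52.6% in FH-Mtgr1. In this share the rescue libraries, not the knockout libraries, stood apart from wt serum+LIF. After the length adjustment 24 members were called lower and 13 higher (26.3% and 27% of all genes) and the median was -0.04. Of the members called on deposited values, 24 of the 46 lower and 3 of the 3 higher kept their call. The 3 Mtgr1-/- libraries lay below the 3 FH-Mtgr1 libraries in 52 members and above them in 4, where 31.1% of all genes lay below and 31.1% above without overlap.

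The place of the members beside genes of their own length changed with length. In the 26 shortest the members' median was -0.63 and that of other genes -0.82, and in the 26 of middle length -0.46 and -0.49. In the 26 longest the members' median was -0.42 against -0.06 for other genes, and -0.29 after the adjustment. The longest members thus had the lower median of the pair and the shortest the higher. The counts without single libraries ran from 41 to 50 called members.

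**Figure D4:**
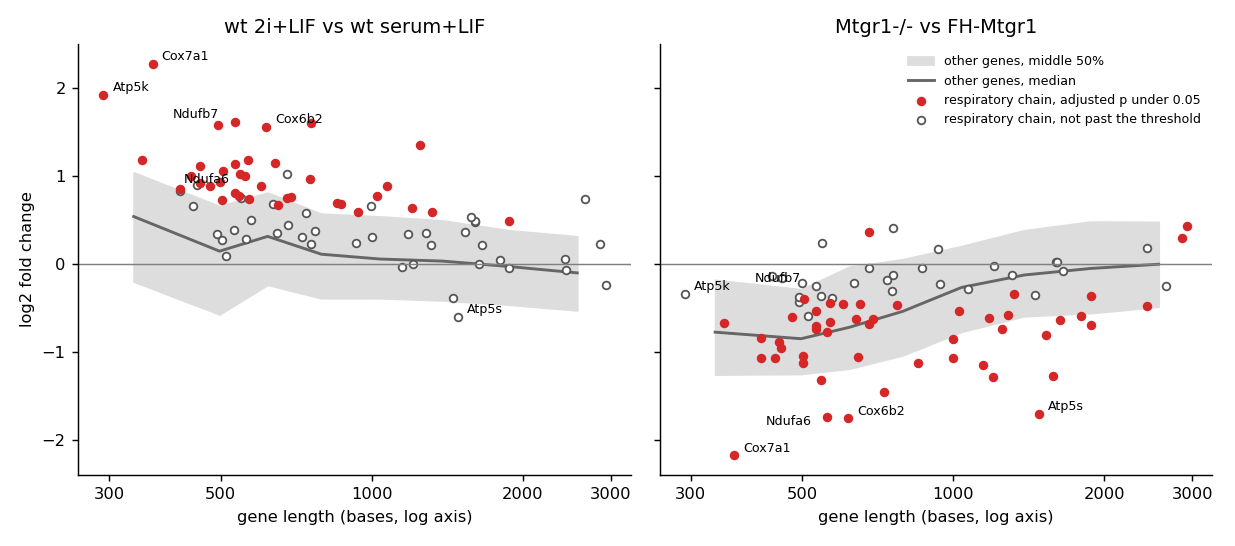
Log2 fold change of the tested members (points, called ones in red) against gene length in bases on a log axis, with the median of the other tested genes as a line and their middle 50% as a band, for wt 2i+LIF against wt serum+LIF (left) and Mtgr1-/- against FH-Mtgr1 (right). On the left most short members lie above the line, with medians of 0.91 and 0.21 for the 26 shortest and other genes of their length, and on the right short members and short genes lie low together, with medians of -0.63 and -0.82.

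By complex, 20 of 35 members were called lower and 1 higher in complex I, 2 and 1 of 4 in complex II, 3 and 0 of 8 in complex III, 13 and 0 of 14 in complex IV, and 8 and 1 of 17 in complex V. After the length adjustment the lower and higher counts were 9 and 8 in complex I, 1 and 1 in complex II, 2 and 1 in complex III, 7 and 0 in complex IV and 5 and 3 in complex V. Complex IV was the only complex with no higher call in either fit. Cox7a2 was its single tested member without a call on deposited values.

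Among the members with the largest negative differences from FH-Mtgr1 were tissue-type isoforms of complex IV. Cox7a1 RPKM was 11.4, 10.7 and 5.55 in Mtgr1-/- and 35.1, 34.5 and 59.0 in FH-Mtgr1. The groups did not overlap, and Mtgr1-/- C3 and FH-Mtgr1 C3 were the extremes. The log2 difference was -2.17 ± 0.37 (SE, n = 3 and 3, limma adjusted p = 4.8e-04) and -1.46 after the length adjustment. Cox6b2, the testis-type subunit 6b, had 16.7, 17.5 and 17.6 against 67.6, 51.9 and 59.6. The knockout clones were close together and all below the rescue, and the log2 difference was -1.75 ± 0.15 (limma adjusted p = 4.8e-06) or -1.17 adjusted for length. Cox4i2 had 1.93, 2.51 and 3.16 against 8.58, 7.26 and 7.35 (-1.46, limma adjusted p = 0.0016). Against the single wt serum+LIF library, Cox6b2 (-1.15) and Cox4i2 (-1.17) were called lower in Mtgr1-/-. Cox7a1, at 14.1 in wt serum+LIF, was not called there (-0.65).

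Outside complex IV, Ndufa6, an accessory complex I subunit, had an RPKM of 67.3, 83.4 and 65.7 in Mtgr1-/- and 279, 195 and 259 in FH-Mtgr1. There was no overlap, and the log2 difference was -1.74 ± 0.18 (limma adjusted p = 1.4e-05) and -1.11 adjusted for length. Ndufa7 had 72.3, 80.9 and 75.3 against 203, 165 and 191 (-1.28), and Atp5s 1.89, 2.31 and 1.01 against 6.88, 7.05 and 5.82 (-1.71). Both kept their call after the adjustment, at -1.06 and -1.58. Atp5s had as few as 17 reads in a library. Against the single wt serum+LIF library, Ndufa6 (-0.99) and Atp5s (-1.52) were called lower in Mtgr1-/-, and Ndufa7 (-0.38) was not called.

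The 3 members called higher belonged to complexes I, V and II. Ndufs1 had an RPKM of 41.6, 40.7 and 34.2 in Mtgr1-/- and 27.9, 29.4 and 28.2 in FH-Mtgr1 (log2 difference 0.43 ± 0.13, limma adjusted p = 0.013). Atp5g3, 1 of the 3 genes for the c subunit of the rotor ring, had 429, 437 and 362 against 335, 302 and 314 (0.37 ± 0.11, limma adjusted p = 0.011). Sdha, the flavoprotein of complex II, had 85.4, 95.8 and 86.4 against 75, 77.5 and 65.7 (0.29 ± 0.10, limma adjusted p = 0.031). None of the 3 overlapped between groups. Each lost its call in at least 1 of the fits without a library, with adjusted p values of 0.0505 for Ndufs1 without Mtgr1-/- A3, 0.0504 for Atp5g3 without C1 and 0.12 for Sdha without C1. Another c subunit gene, Atp5g2, differed the opposite way, with 363, 435 and 312 in Mtgr1-/- against 787, 671 and 835 in FH-Mtgr1 (-1.05, limma adjusted p = 3.9e-04). Against the single wt serum+LIF library, Atp5g3 (0.91) was called higher in Mtgr1-/-. Ndufs1 (0.06), Sdha (0.115) and Atp5g2 (-0.21) were not called there.

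The comparison of Prdm14-/- with FH-Prdm14 asked the same of Prdm14. Few respiratory chain genes were called: 9 of 78 were lower in the knockout and 0 higher by limma (13.8% and 11.4% of all genes, and 14% and 9.25% of like-length genes), with a median of -0.23. Both knockout libraries lay below both rescue libraries in 43 members and above them in 4, where 40.4% and 29.2% of all genes did so. After the length adjustment 6 were called lower and 2 higher (13% and 13.5% of all genes), and all 6 had been called lower before. Uqcrq (-0.54, limma adjusted p = 0.19) and Atp5h were among those that lost the call. Among the 9 were the core protein Uqcrc1, Uqcr10 and Uqcrq of complex III, Ndufb4 of complex I, Cox5a of complex IV, and Atp5b, Atp5g1 and Atp5h of ATP synthase.

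Uqcr10 RPKM was 161 and 125 in Prdm14-/- F10 and G6 and 273 and 242 in FH-Prdm14 (log2 difference -0.86 ± 0.29, SE, limma adjusted p = 0.045). Ndufb4 had 109.6 and 86.2 against 179 and 156 (-0.78 ± 0.20, limma adjusted p = 0.013), and Uqcrq 192 and 165 against 313 and 283 (-0.74 ± 0.21, limma adjusted p = 0.022). G6 was the lower knockout clone in each of these 3 genes, and neither clone reached the rescue range. Atp5b had 868 and 849 against 1099.8 and 1179.8 (-0.41, limma adjusted p = 0.028). These calls rested on 2 libraries per group. The count was 5 when parental clone was a replicate block, and the share of all genes called in that fit is not given here. The count also moved, down or up, when a library was left out, which leaves a single library in a group.

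E294K was compared with both other states of the same clones. Against Prdm14-/-, 19 of 78 members were called higher and 6 lower by limma (15.1% and 17.8% of all genes, 16.7% and 17.8% of like-length genes), with a median of 0.29. After the length adjustment 19 were higher and 8 lower (17.5% and 18.4% of all genes), with a median of 0.10, and 16 higher and 6 lower calls were shared. The higher calls comprised 6 members of complex I, 1 of complex II, 3 of complex III, 3 of complex IV and 6 of complex V. The count depended on single libraries, with 4 calls without E294K F10, 6 without E294K G6, 5 without Prdm14-/- G6 and 24 without Prdm14-/- F10.

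Uqcrb, a small complex III subunit, had an RPKM of 145 and 154 in E294K and 61.3 and 40.3 in Prdm14-/- (log2 difference 1.57 ± 0.44, SE, limma adjusted p = 0.017). Ndufa5 had 55.2 and 52.6 against 28.2 and 19.0 (1.2 ± 0.24, limma adjusted p = 0.0036), and Atp5k 205 and 187 against 102 and 83.6 (1.08 ± 0.29, limma adjusted p = 0.017). The E294K libraries lay above both knockout libraries in all 3. In the opposite direction, Cox6b2 had 48.0 and 55.0 in E294K against 104 and 108 (-1.04 ± 0.19, limma adjusted p = 0.0021), Ndufs7 had 68.5 and 76.8 against 119 and 147 (-0.87 ± 0.24, limma adjusted p = 0.016), and Ndufa13 had 49.1 and 50.8 against 86.4 and 78.7 (-0.72 ± 0.15, limma adjusted p = 0.0046). With length and GC adjustment, Ndufa13 (-0.09, limma adjusted p = 0.75) and Ndufs7 (-0.43, limma adjusted p = 0.080) were no longer called.

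Against FH-Prdm14, which carries the same transgene without the substitution, 2 members were higher in E294K and 5 lower by limma (6.35% and 13.2% of all genes), with a median of 0.03. After the length adjustment 6 were higher and 7 lower (9.71% and 12% of all genes), with 2 and 4 shared. These calls use the spread of the other groups' libraries. With only these 2 conditions in the limma fit many more members were called, as given under the dependence on processing. The few calls therefore do not show that the 2 groups were alike. Ndufa5 (0.85 on the log2 scale) and Atp5g3 (0.50) were higher, and Cox6b2 (-1.09), Ndufa13 (-0.80), Uqcrc1 (-0.62) and Ndufa7 (-0.49) were among the lower. Uqcrc1 lost its call with the length adjustment, and with length and GC adjustment Ndufa13 (-0.28, limma adjusted p = 0.36), Ndufa7 (-0.25, limma adjusted p = 0.18) and Uqcrc1 (-0.24, limma adjusted p = 0.14) were not called. Cox6b2 RPKM was 48.0 and 55.0 in E294K against 108 and 111 in FH-Prdm14, with no overlap. When any 1 of the 4 libraries was left out, 2 members were called.

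Against the single wt serum+LIF library, members of the knockouts moved both ways. Mtgr1-/- had 7 members higher and 12 lower (14.9% and 22.1% of all genes), with a median of 0.05, and 15 higher and 11 lower after the length adjustment (19.5% and 19.2%), 7 and 9 of them shared. Atp5k rose from 50.9 to 172, 169.6 and 118 (log2 difference 1.56), Ndufb7 from 62.3 to 141, 164 and 115 (1.15) and Ndufa1 from 23.6 to 49.9, 55.0 and 45.1 (1.06). Atp5s fell from 5.73 to 1.89, 2.31 and 1.01 (-1.52), Cox4i2 from 6.24 to 1.93, 2.51 and 3.16 (-1.17) and Cox6b2 from 38.9 to 16.7, 17.5 and 17.6 (-1.15). Their limma adjusted p values ran from 0.0011 to 0.047.

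Prdm14-/- had 11 members higher and 2 lower than wt serum+LIF (11.7% and 13.7% of all genes), with a median of 0.09, and 16 higher and 3 lower after the length adjustment (14.2% and 12.6%), 11 and 2 of them shared. Of the 11, 9 were complex I genes. Ndufs7 rose from 46.2 to 119 and 147 (log2 difference 1.51, limma adjusted p = 0.0054) and Ndufb7 from 62.3 to 122 and 125 (0.98, limma adjusted p = 0.0092). Cox6b2 rose from 38.9 to 104 and 108 (1.43, limma adjusted p = 0.0022). Lower were Ndufv2, with 47.2 and 37.2 against 67.8, and Atp5f1, with 138 and 96.9 against 179. With length and GC adjustment the calls of Ndufv2 (-0.25, limma adjusted p = 0.21), Atp5f1 (-0.38, limma adjusted p = 0.070) and Ndufb7 (0.45, limma adjusted p = 0.12) were lost. Among the complex I genes, so were those of Ndufa11 (0.40, limma adjusted p = 0.20), Ndufa7 (0.26, limma adjusted p = 0.26) and Ndufa13 (0.19, limma adjusted p = 0.61). Without Prdm14-/- G6, 6 members were called. The comparisons of a knockout with wt serum+LIF share that library with each other and with the 2i+LIF comparison.

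The 2 knockouts differed from each other in 19 members, with 5 higher and 14 lower in Mtgr1-/- (14.4% and 21.1% of all genes) and 12 each way after the length adjustment (18.3% and 19.2%), 5 and 10 of them shared. Cox6b2 differed most, at 16.7, 17.5 and 17.6 in Mtgr1-/- against 104 and 108 in Prdm14-/- (log2 difference -2.59 ± 0.17, SE, limma adjusted p = 4.9e-06). Ndufa6 (-1.2) and Atp5s (-1.15) were also lower in Mtgr1-/-, and Ndufa5 (0.91), Ndufb10 (0.77) and Atp5g1 (0.52) were higher. Without Mtgr1-/- A3 or Mtgr1-/- C1 the count was 10 each time, and without Mtgr1-/- C3 it rose above 19. It fell without either Prdm14-/- library, which leaves a single library in that group.

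The rescue lines differed by a like number. FH-Prdm14 had 7 members higher and 13 lower than FH-Mtgr1 (26.2% and 15.4% of all genes), with a median of -0.25, and 13 higher and 9 lower after the length adjustment (21.9% and 20.6%), 6 and 8 of them shared. Higher were Cox6b2 (0.88), Uqcrc1 (0.87) and Ndufv1 (0.71), and lower Uqcrb (-1.21), Cox4i2 (-1.10) and Atp5l (-1.06), the g subunit of ATP synthase. Without FH-Prdm14 F10, FH-Prdm14 G6 or FH-Mtgr1 A3 the count of 20 became 11, 6 and 10. FH-Prdm14 in serum+LIF had 0 members higher and 7 lower than wt 2i+LIF (15.5% and 7.97% of all genes), and 0 higher and 15 lower after the length adjustment (13.6% and 11.5%), 6 of them shared. Cox7a1 (-1.82), Cox4i2 (-1.12) and Ndufb7 (-0.96) had the largest of these differences. This count went from 7 to 31 without the first 2i+LIF library, to 2 without the second, to 3 without FH-Prdm14 F10 and to 1 without FH-Prdm14 G6.

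Whether loss of Mtgr1 and loss of Prdm14, each against its own rescue, changed the members to different extents was tested as a difference of differences. In 16 members the effects differed by limma, 15 of them more negative for Mtgr1 and 1 more positive, where 14.3% and 17.1% of all genes were called in these directions. After the length adjustment 11 were more negative and 6 more positive (16.2% and 16.9% of all genes), and 12 of the 16 kept call and sign. For Cox6b2 the effect was -1.75 for Mtgr1 and -0.05 for Prdm14, a difference of -1.71 ± 0.24 (SE, limma adjusted p = 4.6e-04). For Ndufa7 it was -1.28 and -0.12 (a difference of -1.16 ± 0.17, limma adjusted p = 5.9e-04). For Ndufs1 it was 0.43 and -0.28 (0.71 ± 0.20, limma adjusted p = 0.019).

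The tissue-type isoforms were also set against their common paralogs within each library, a share that does not depend on library scale. Cox6b2 made up 20.4% of the summed Cox6b1 and Cox6b2 RPKM in wt serum+LIF and 25.9% and 27.4% in wt 2i+LIF. The share was 36.6% and 43.2% in Prdm14-/-, 34.8% and 39.8% in FH-Prdm14, and 17.3% and 20.6% in E294K. It was 8.32%, 9.34% and 9.03% in Mtgr1-/- and 21.1%, 20.2% and 19.6% in FH-Mtgr1. The 4 Prdm14-/- and FH-Prdm14 libraries thus had the highest shares and the 3 Mtgr1-/- libraries the lowest, with no overlap with any other group. The Cox7a1 share of Cox7a1 and Cox7a2 RPKM was 18.9% in wt serum+LIF, 34% and 40.6% in wt 2i+LIF, 8.25% to 10.8% in Mtgr1-/- and 24.9% to 34.5% in FH-Mtgr1. In the Prdm14 clones it ran from 15.7% to 26.2%, and Prdm14-/- (25.3% and 15.7%) overlapped both FH-Prdm14 (20.5% and 18.5%) and E294K (22.5% and 26.2%). The shares follow the same RPKM values as the tests above and are no independent evidence.

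**Figure D5:**
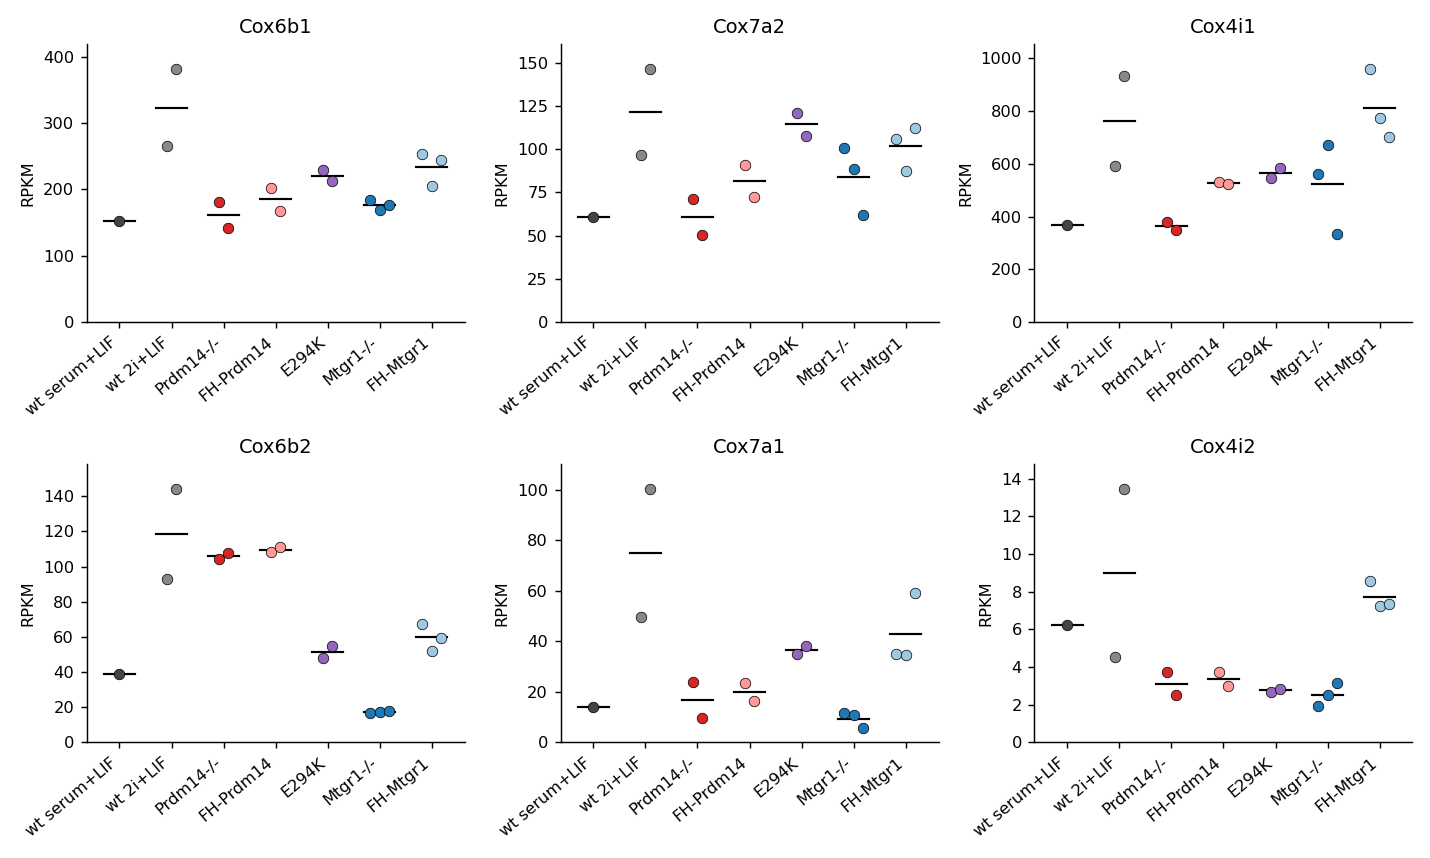
RPKM of the common complex IV isoforms Cox6b1, Cox7a2 and Cox4i1 (top) and of their tissue-type paralogs Cox6b2, Cox7a1 and Cox4i2 (bottom), 1 point per library by group, with the group mean as a bar. Cox6b2 lies at 16.7 to 17.6 in Mtgr1-/- and at 104 to 111 in Prdm14-/- and FH-Prdm14, and Cox7a1 in Mtgr1-/- (5.55 to 11.4) lies below every FH-Mtgr1 library.

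Genes that build or run the chain without being subunits under the symbol rule were called in both directions, and their counts stand beside 26.2% of all genes called higher and 26.1% lower in Mtgr1-/- against FH-Mtgr1, 9.28% and 13.6% in wt 2i+LIF against serum+LIF, 15.1% and 17.8% in E294K against Prdm14-/-, and 11.4% and 13.8% in Prdm14-/- against FH-Prdm14. Of 77 mitochondrial ribosomal protein genes, 15 were called higher and 20 lower in Mtgr1-/- against FH-Mtgr1 (median -0.04, and 34 higher and 11 lower after the length adjustment), 7 higher and 6 lower in wt 2i+LIF against serum+LIF (-0.09), and 29 higher and 6 lower in E294K against Prdm14-/- (0.39). Mrpl20 rose in the last by 1.32 on the log2 scale (limma adjusted p = 2.6e-04). Complex I assembly factors had 1 of 13 higher and 6 lower in Mtgr1-/- against FH-Mtgr1, led by Ndufaf6 (-1.29), and 2 higher and 3 lower in Prdm14-/- against FH-Prdm14, where Ndufaf6 was higher (0.78). Of 21 complex IV assembly factors, 5 were higher and 7 lower in Mtgr1-/- against FH-Mtgr1 (7 and 4 after the length adjustment), from Lrpprc (0.98), which stabilises mitochondrial mRNA, to Cox14 (-1.48). Among 17 tricarboxylic acid cycle genes the counts were 4 and 5 in the same comparison, and 5 higher and 2 lower in 2i+LIF, with Idh2 at 1.43. Of 14 nuclear regulators and factors of mitochondrial DNA, 4 were higher and 3 lower in Mtgr1-/- against FH-Mtgr1, where the coactivator Ppargc1b had -1.36, and 0 higher and 1 lower in 2i+LIF. For comparison, 76 of 80 cytosolic ribosomal protein genes, also short, were lower and 2 higher in Mtgr1-/- against FH-Mtgr1 (median -1.01, and 57 lower and 3 higher after the length adjustment), and 29 were higher and 0 lower in 2i+LIF (0.61).

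Calls were also counted by promoter motif. Among tested members with an NRF1 match, 6 of 16 were called higher in 2i+LIF (median 0.66), against 27 of 47 without a match (0.70). Of all tested genes, 9.28% were called higher. With an ETS match 12 of 16 were higher (median 0.83) against 21 of 47 (0.66). For the ERR motif the counts were 5 of 7 (0.85) against 28 of 56 (0.68). For the GC box they were 7 of 10 (0.87) against 26 of 53 (0.68). In Mtgr1-/- against FH-Mtgr1, 8 of 16 with and 28 of 47 without an NRF1 match were lower. With and without the other motifs, 7 of 16 and 29 of 47 (ETS), 3 of 7 and 33 of 56 (ERR), and 7 of 10 and 29 of 53 (GC box) were lower. Of all tested genes, 26.1% were called lower. These are counts with no test.

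Near-identical copies could take reads from some members. Of 82 members with a position on mm9 (NCBIM37), spread over 19 chromosomes, 32 had a stretch of at least 100 bases with 95% or higher identity elsewhere in the genome. Members with such a copy were called lower in Mtgr1-/- against FH-Mtgr1 in 21 of 31 cases (median -0.66) and those without in 25 of 47 (-0.40), and 16 of 31 and 21 of 47 were higher in 2i+LIF. Of all tested genes, 26.1% were called lower in the Mtgr1 comparison and 9.28% higher in 2i+LIF. Cox6b2, Cox7a1, Ndufa6, Atp5s and Ndufs7 had no such copy. In 24 members such copies covered at least 50% of the transcript. Among members named above, they covered 100% in Atp5g2, 99.4% in Ndufa7, 98.2% in Uqcr10, 96.3% in Atp5l, 92.9% in Uqcrb and 76.5% in Atp5k. The part of these copies in the values was not tested. Ndufs5, listed at 0 in all libraries, had 1 such copy, which covered 96% of its transcript. The part of this copy in the listed value was not tested.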

How the data were processed

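RNA was selected with oligo-dT, fragmented and made into libraries read single-ended on NextSeq (76 bases) or HiSeq (51 bases); which library was read on which is not given in the sources used here. Per the study's methods, the authors used Tophat for alignment to mm9 and HTSeq for counting on RefSeq models, and deposited RPKM values and a length for 24015 genes. GEO's processing notes also name GRCm38. The 11 ChIP-seq samples of the 26 were not analysed here.

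Each deposited RPKM column gave whole reads for 100.0% of values (tolerance 0.01 reads), which set depth. The main test was limma 3.58.1 in R 4.3.3 on log2(RPKM + 0.5) for 13477 genes with RPKM of at least 1 in 2 or more libraries, with 1 mean per condition over all 15 libraries, a mean-variance trend and Benjamini-Hochberg adjustment (threshold 0.05). Fold changes are on that scale and understate those of low genes. voom on the recovered reads was an alternative. For the length adjustment, a lowess curve (span 0.3) of each library's deviation on log2 length was subtracted. The fit was tested on simulated data with 200 changed genes. Copies were searched with minimap2 2.31-r1302 on NCBIM37, and figures drawn with matplotlib 3.10.9 under Python 3.11.15, numpy 2.4.6, scipy 1.17.1 and pandas 2.3.3.

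Groups came from the labels. Rescue lines share the parental clone of their knockout, so clone was an alternative replicate block. Correlations of same-clone deviations were 0.0633 (A3), -0.182 (C1) and 0.0278 (C3) for Mtgr1, 0.299 for Prdm14-/- with FH-Prdm14, 0.0797 for E294K with FH-Prdm14 and 0.0405 for E294K with Prdm14-/-. Other alternatives were the pseudocount, no filter, median-of-ratios scaling, adjustment for GC content, only the compared conditions and leaving out each library. Members, gene lists and tests were chosen with earlier results of these data known. Named members were, per comparison and direction, the 3 with the largest called change and no overlap between groups, the pairs of common and tissue-type isoforms, the Atp5g and Sdh genes and the highest and lowest of each complex; others named were chosen after their values were seen. GC content, its combination with length, and the block combined with length were added after the data were seen. Some single-gene values are not reported here. P-values measure the spread between the labelled libraries, which may in part be technical.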

Additional observations from a re-analysis of the deposited data

Results flagged for a closer look

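In 16 members the difference between knockout and rescue was not the same for Mtgr1 and Prdm14, by the difference of differences in limma with Benjamini-Hochberg adjustment. Of all 13477 tested genes, 14.3% were called more negative for Mtgr1 and 17.1% more positive. With both directions counted, the 16 of 78 tested members were a smaller share than that of all genes. In the more negative direction, with 15 members, the share was larger than that of all genes. After the length adjustment the members' share was the smaller in each direction, where 16.2% of all genes were more negative and 16.9% more positive. Values are the Mtgr1 difference minus the Prdm14 difference on the log2 scale. In complex IV they were -1.81 for Cox7a1, -1.71 for Cox6b2, -1.35 for Cox4i2, -1.08 for Cox7a2l, a factor of supercomplex assembly, and -0.80 for Cox8a. In complex V they were -1.61 for Atp5s, -1.23 for Atp5g2 and -0.92 for Atp5e. In complex I they were -1.57 for Ndufa6, -1.16 for Ndufa7, -0.88 for Ndufv3, -0.85 for Ndufb11, -0.66 for Ndufa13, -0.55 for Ndufb8 and 0.71 for Ndufs1. In complex III the value was -0.84 for Uqcrc2. Without their call after the length adjustment were Cox4i2 (adjusted p = 0.084), Atp5e (0.20), Cox8a (0.13) and Ndufb8 (0.67), and with length and GC adjustment also Ndufa13 (0.12) and Ndufv3 (0.054). Prdm14 RPKM was 79.8 to 116 in FH-Prdm14 against 2.77 in wt serum+LIF, and the part of this in the values was not tested.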

How the results depend on the processing

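Of 145 alternative counts of called members, 105 stayed within 1.5 times the reported count, as did all of those for Mtgr1-/- against FH-Mtgr1 (range without single libraries 41 to 50) and for the difference of differences; the cause of the other moves was not tested. For Prdm14-/- against FH-Prdm14 (9) the count was 5 with median-of-ratios scaling, 5 with the replicate block, 5 with the replicate block and length adjustment, and 1 to 10 without single libraries; the block moved no other count past 1.5 times. For E294K against FH-Prdm14 (7) it was 13 adjusted for length, 4 for GC content, 42 with only the compared conditions and 2 to 2 without single libraries, and for E294K against Prdm14-/- (25) 4 to 24. For Mtgr1-/- against wt serum+LIF (19) it was 12 with the GC adjustment and 11 with only the compared conditions, and for Prdm14-/- against wt serum+LIF (13) 8, 2 and, without single libraries, 6 to 9. For wt 2i+LIF against serum+LIF (37) it was 0 with only the compared conditions. For FH-Prdm14 against wt 2i+LIF (7) it was 13 with median-of-ratios scaling, 15 adjusted for length, 13 for GC content, 22 for both, 0 with only the compared conditions and 1 to 31 without single libraries. With only the compared conditions Mtgr1-/- against Prdm14-/- (19) had 11 and FH-Prdm14 against FH-Mtgr1 (20) had 35, and without single libraries 10 to 26 and 6 to 20. With voom on the recovered reads the count was 51 for Mtgr1-/- against FH-Mtgr1 and 38 for wt 2i+LIF against serum+LIF. The share of all genes called in each alternative is not given beside these counts. From the counts alone, a move of the members and a move of all genes cannot be told apart.

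In Mtgr1-/- against FH-Mtgr1 the length adjustment turned the sign of 29 of 78 members, 8 of them called before it, 7 after it and 0 both times. Examples were Atp5g1 (-0.05 to 0.36, with or without the block) and Cox6b1 (-0.40 to 0.29, and 0.23 with GC content). The sign also turned for the median of members in FH-Prdm14 against FH-Mtgr1 (0.0038) and in the difference of differences (0.039). Median-of-ratios scaling moved the median of all genes by 0.13 in Mtgr1-/- against wt serum+LIF and by 0.11 in wt 2i+LIF against serum+LIF. Members under 100 reads (Atp5s, Cox4i2, Cox7a1) are limited by depth.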
